A study of Taeniopygia guttata with 24 samples.

Results

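SETD9, YTHDC2, UHRF2, KDM4C and SETBP1 are genes of the zebra finch (Taeniopygia guttata) Z chromosome whose proteins modify chromatin, read modified RNA or bind a regulator of chromatin. These 5 genes were chosen by identifier among the 18618 genes of the count table, and all 5 were among the 13891 genes with enough reads to be tested. RNA came from whole telencephalon, the forebrain part that holds the song control nuclei, of untreated male and female birds. Their ages were 1, 20 and 65 (± 3 days) days post hatch (dph) and adult. The sample descriptions give adults as over 170 dph and the study's methods as over 120 dph. Each of the 24 samples is a pool of RNA from 3 birds of the same sex and age, and there were 3 pools for each sex at each age. The birds were bred in an aviary, and nest mates were spread at random over the ages. A whole telencephalon averages over many cell types, so that fewer cells of a type and less RNA per cell cannot be told apart in any value below. The 5 genes are the Z-linked genes that the study's table of epigenetic regulators lists for a sex difference in these same pools, so that a higher level in males is not independent evidence for them.

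In birds the male carries 2 copies of the Z chromosome (ZZ) and the female a single copy beside the W chromosome (ZW). Birds are not known to silence a whole Z chromosome as mammals silence an X, and many Z genes are expressed at a higher level in males, each to its own extent. Chromatin regulators act by adding, removing or reading chemical marks on histones and DNA, and N6-methyladenosine (m6A) is a mark on messenger RNA with its own writers, erasers and readers. SETD9 has a SET domain, the fold of most histone lysine methyltransferases. YTHDC2 is an RNA helicase with a YTH domain, which binds m6A, and it is needed for germ cells to go through meiosis in mice. UHRF2 is a ubiquitin ligase that binds modified cytosine and methylated histone H3, a paralog of the DNA methylation maintenance factor UHRF1. KDM4C removes methyl groups from lysine 9 of histone H3 (H3K9). SETBP1 binds the SET protein, an inhibitor of a phosphatase and of histone acetylation, and variants that disrupt it cause a developmental disorder of speech and cognition in humans.

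Between 16680575 and 28772178 reads per pool fell on genes, and the floor set by 3 counts of these totals lay between 0.104 and 0.180 cpm (a gene's reads scaled to the size of its library). This floor covers counting error only and is taken before TMM, a correction for library composition that the levels below carry. The 5 genes lay far above it, with 61 to 206 reads per pool for KDM4C, 324 to 1330 for SETD9, 373 to 1580 for UHRF2, 451 to 2425 for SETBP1 and 2044 to 7070 for YTHDC2. Because cpm is not scaled to gene length, levels are compared here only within a gene. The telencephalic markers EMX2 and TBR1 were read in all 24 pools, with a summed level of 117 to 214 cpm.

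The adult pools stood apart from the younger ones in how their Z genes compared between the sexes. The Z level of a pool is defined here as the median, over the other 634 tested Z genes, of log2 cpm less the mean of the 6 pools of that age. At 1, 20 and 65 dph the Z level ranged from -0.44 to -0.24 in female pools and from 0.27 to 0.39 in male pools. In adults it was -0.12, -0.05 and -0.09 in female pools 1, 2 and 3, and -0.08, 0.30 and 0.06 in male pools 1, 2 and 3. The adult pool labelled male 1 thus lay within the range of the adult female pools. The adult pool labelled male 2 had a value in the range of the younger males, but each age has its own centre. Against the female pools of its own age, adult male pool 2 stood out less than the younger male pools did. Over the genes not placed on Z the same measure lay between -0.02 and 0.02 in each of the 24 pools. A rule planned beforehand, on the female mean and its fold over males at each younger age, picked 0 genes. A rule set after the data were seen picked 2 genes read mainly in the younger females. It asked for each younger female pool above each younger male pool, so that the separation of the younger pools follows from the rule. One, ENSTGUG00000017276, had 178 reads in the younger females and 26 in the younger males, or 8 to 31 per female pool and 0 to 6 per male pool. In adults it had 17, 16 and 10 reads in the female pools and 9, 1 and 23 in the male pools, so that adult male pools 1 and 3 carried as many reads as some younger female pools. The other, ENSTGUG00000003075, had 2 to 8 reads per younger female pool and 0 to 1 per younger male pool. In adults it had 6, 1 and 2 reads in the female pools and 2, 2 and 1 in the male pools, counts too low to set adult male pools 1 and 3 apart from pool 2. Adult pools are called by their labels below, the adult sex differences of the 5 genes are also given without the pools that changed a call, and the part of these differences in the adult results was not tested.

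SETD9 was higher in each male pool than in each female pool at all 4 ages. At 1 dph its level was 23.8, 21.9 and 26.1 cpm in the female pools and 49.0, 45.7 and 48.2 cpm in the male pools. At 20 dph it was 20.7, 18.1 and 19.3 cpm in females and 39.6, 43.3 and 36.0 cpm in males. At 65 dph it was 21.7, 20.6 and 22.1 cpm in females and 42.5, 39.8 and 41.2 cpm in males. The sexes were far apart at these ages against the spread within a group, whose SD at 65 dph was 0.760 cpm in females and 1.32 cpm in males (n = 3 pools each). In adults the level was 27.8, 30.7 and 29.2 cpm in females and 32.4, 41.6 and 34.7 cpm in males, so that the lowest male pool lay just above the highest female pool.

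YTHDC2, the m6A-binding helicase, had a sex difference much like that of SETD9. Its level at 1 dph was 120.0, 112 and 125 cpm in the female pools and 243, 232 and 230.2 cpm in the male pools. At 20 dph it was 123, 123 and 128 cpm in females and 264, 258 and 259 cpm in males. At 65 dph it was 127, 130.2 and 119 cpm in females and 237, 249 and 241 cpm in males. Female pools stayed near the same level through 65 dph, with means of 119 ± 6.79, 124 ± 2.83 and 125 ± 5.95 cpm (SD, n = 3). In adults the female pools were higher, at 145, 164 and 159 cpm, and the male pools were spread over 173, 237 and 184 cpm, still without overlap.

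UHRF2, which binds modified cytosine, had a smaller gap between the sexes. At 1 dph its level was 38.3, 32.0 and 36.3 cpm in the female pools and 59.0, 54.2 and 54.7 cpm in the male pools. At 20 dph it was 28.3, 31.7 and 31.0 cpm in females and 44.5, 41.5 and 43.4 cpm in males. At 65 dph it was 29.2, 23.8 and 26.9 cpm in females and 41.3, 42.0 and 46.4 cpm in males. No pools overlapped between the sexes at these 3 ages. In adults they did, with 35.8, 34.2 and 28.8 cpm in females and 29.3, 40.0 and 36.6 cpm in males.

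KDM4C, the H3K9 demethylase, was the gene with the fewest reads of the 5. At 1 dph its level was 3.84, 3.77 and 3.74 cpm in the female pools and 6.91, 6.49 and 7.47 cpm in the male pools. At 20 dph it was 4.01, 3.60 and 2.95 cpm in females and 7.0, 6.35 and 8.02 cpm in males. At 65 dph it was 4.36, 3.89 and 3.76 cpm in females and 7.80, 9.03 and 8.57 cpm in males. The highest female pool of these ages lay below the lowest male pool. The adult levels were 6.36, 6.78 and 6.79 cpm in females, above each younger female pool, and 6.30, 9.69 and 7.54 cpm in males, where pool 1 lay below the 3 female pools.

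SETBP1, the SET-binding protein gene, differed most between ages and, at 1, 20 and 65 dph, least between sexes. At 1 dph its level was 71.9, 51.5 and 58.3 cpm in the female pools and 90.6, 79.2 and 81.4 cpm in the male pools. At 20 dph it had dropped to 31.0, 30.9 and 31.5 cpm in females and 39.4, 33.7 and 41.5 cpm in males. At 65 dph it was 34.7, 28.7 and 28.5 cpm in females and 47.1, 47.4 and 52.6 cpm in males. The male pools lay above the female pools at each of these ages, though by little at 20 dph, where the lowest male pool was at 33.7 cpm and the highest female pool at 31.5 cpm. In adults they overlapped, with 54.4, 47.7 and 42.0 cpm in females and 40.5, 65.4 and 57.3 cpm in males.

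**Figure D1:**
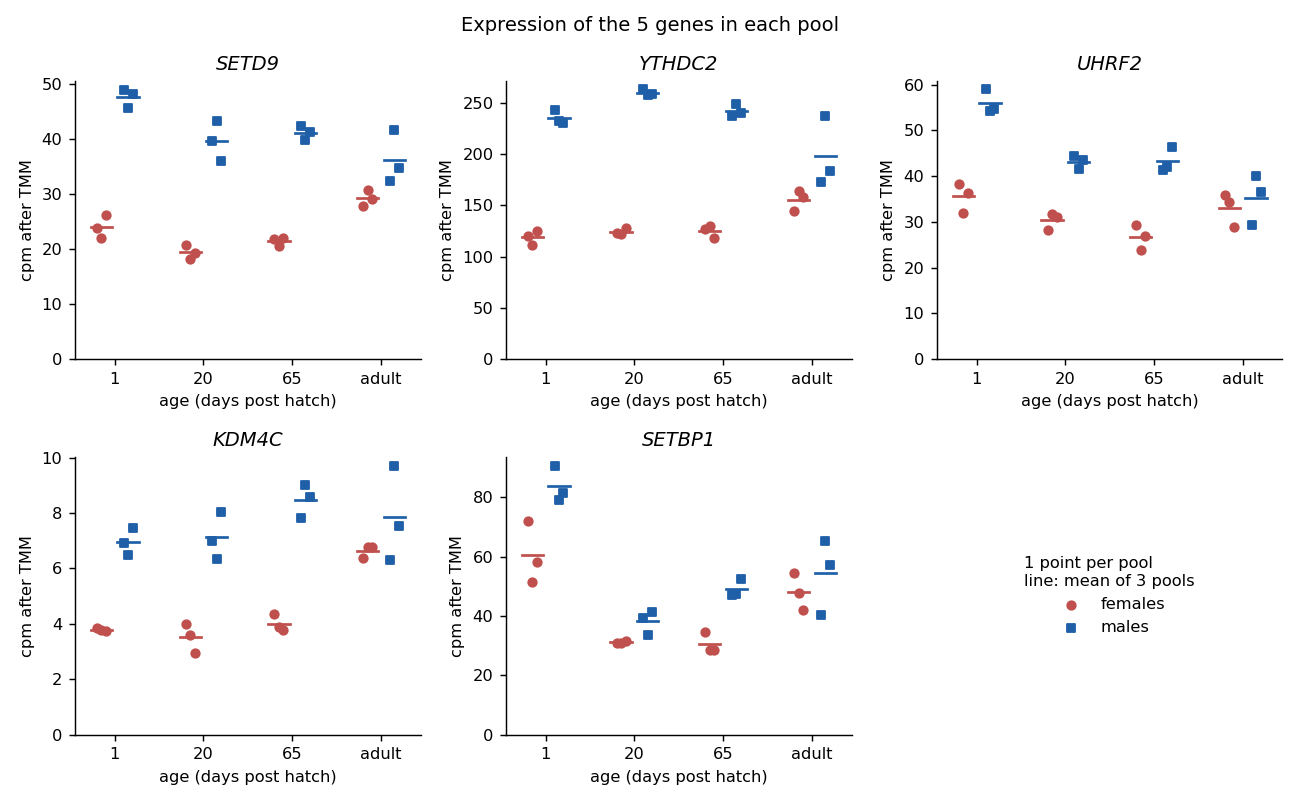
Level of each of the 5 genes in cpm after TMM (y axis, from 0, own scale per gene) by age in days post hatch (x axis). Each point is a pool of 3 birds (circles, females; squares, males) and each line the mean of 3 pools. The male pools lie above the female pools in all 15 combinations of gene and younger age, and the adult groups lie closer together.

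The first comparison asked whether each gene differed between males and females at each age. At 1 dph all 5 genes were called higher in males, where 80.8% of the other Z genes and 4.33% of all tested genes were. At 20 dph 4 of the 5 were called, all but SETBP1, against 67.8% of the other Z genes and 3.49% of all tested genes. At 65 dph all 5 were called, against 74.4% of the other Z genes and 3.82% of tested genes. A gene was called when it passed an edgeR test over the sex differences at 4 ages and the age effect together (Benjamini-Hochberg 0.05) and then had a Holm-adjusted p of at most 0.05 for that contrast. In 15 of 15 combinations of gene and younger age each male pool was above each female pool, as it was for 7.19%, 7.21% and 7.37% of tested genes at 1, 20 and 65 dph. The share of the other Z genes with such a separation was not counted.

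The size of the sex difference in the younger birds varied between the genes, and differences between genes were not tested. SETD9, YTHDC2 and KDM4C were close to the 2-fold ratio of their gene copies, with mean male to female (M:F) ratios over 1, 20 and 65 dph of 1.98, 2.0 and 1.99. UHRF2 had a mean ratio of 1.54 and SETBP1 of 1.39. The median over the other 634 Z genes was 1.62. Of these other Z genes, 84.5% had a lower mean log2 ratio than SETD9, 88.2% than YTHDC2, 85.6% than KDM4C, 44.6% than UHRF2 and 30.6% than SETBP1. The 5 genes therefore covered much of the range of Z genes and did not form a class of their own within it.

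For SETD9 the log2 M:F ratio at the 3 younger ages was 0.99, 1.03 and 0.94, each with an SE of 0.09 (edgeR adjusted p at most 2.85e-09). For YTHDC2 it was 0.98, 1.06 and 0.95, each with an SE of 0.08 (edgeR adjusted p at most 2.2e-10). KDM4C had log2 M:F ratios of 0.88, 1.01 and 1.08, each with an SE of 0.15 (edgeR adjusted p at most 1.71e-05). The intervals of these 3 genes overlapped widely at each of the 3 ages.

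UHRF2 had lower ratios, 0.65, 0.51 and 0.70 on the log2 scale with an SE of 0.10 to 0.11 (edgeR adjusted p at most 0.000141). For SETBP1 the log2 ratio was 0.47 ± 0.14 (SE) at 1 dph (edgeR adjusted p = 0.00713) and 0.68 ± 0.14 at 65 dph (edgeR adjusted p = 0.000376). At 20 dph it was 0.29 ± 0.14, which was not called (edgeR adjusted p = 0.101, 95% interval 0.00 to 0.59). The call of SETBP1 at 1 dph was lost with the Benjamini-Hochberg method within the contrast (adjusted p = 0.0618, when 3.35% of genes were called higher) with only the pools of that age (adjusted p = 0.0706) and without female pool 2 (log2 0.36, adjusted p = 0.057). At 20 dph SETBP1 was called without male pool 2 of that age (log2 0.38, adjusted p = 0.0482) and without adult male pool 1 (log2 0.29, adjusted p = 0.0231). The change of the SETBP1 ratio from 20 to 65 dph, 0.38 ± 0.20 on the log2 scale, had an unadjusted p of 0.0686 and an edgeR Benjamini-Hochberg p of 0.708, in a test added after the values were seen. That test called none of the 5 genes and 0 of all tested genes, so that a difference between the ratios at 20 and 65 dph was not shown.

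**Figure D2:**
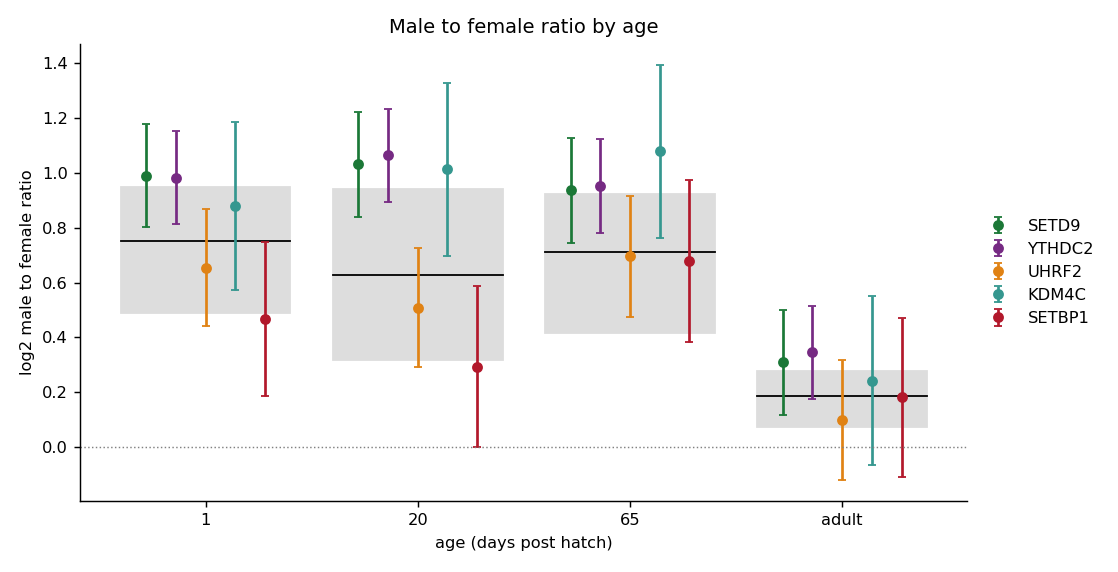
Log2 M:F ratio of the 5 genes (y axis) by age in days post hatch (x axis), with 95% intervals from the edgeR fit. The black lines and grey boxes are the median and quartiles of the other 634 tested Z genes, whose median is 0.75, 0.63, 0.71 and 0.19 from young to old, and the estimate of each of the 5 genes is lower in adults than at each younger age.

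In adults the differences were smaller. SETD9 had a log2 M:F ratio of 0.31 ± 0.09 (SE, edgeR adjusted p = 0.00553) and YTHDC2 of 0.35 ± 0.08 (edgeR adjusted p = 0.000675). These 2 of the 5 genes were called higher in males, where 28.5% of the other Z genes and 1.86% of tested genes were. Their pools did not overlap, as for 4.8% of tested genes, and the share among the other Z genes was not counted. UHRF2 (0.10 ± 0.11), KDM4C (0.24 ± 0.15) and SETBP1 (0.18 ± 0.14) were not called, with 95% intervals of -0.12 to 0.32, -0.07 to 0.55 and -0.11 to 0.47. The adult calls hung on the adjustment. With the Benjamini-Hochberg method within the contrast 0 of the 5 genes were called (adjusted p of 0.564 for SETD9 and 0.259 for YTHDC2). In that setting 2 had an unadjusted p under 0.05, and 0.0432% of all genes were called higher. The calls also rested on a spread that the fit shares over all ages. For YTHDC2 the SE was 0.08 both at 1 dph and in adults. Its SD in males was 6.93 cpm at 1 dph and 34.6 cpm in adults (n = 3 pools each). With only the adult pools in the fit, SETD9 and YTHDC2 were not called, at nearly the same log2 ratios (0.31 and 0.34). The adult calls depended on the pools as well, since 5 of the 5 genes were called without adult male pool 1. Their log2 ratios were then 0.38 for SETD9, 0.44 for YTHDC2, 0.22 for UHRF2, 0.38 for KDM4C and 0.35 for SETBP1. Without adult male pool 2 the ratios were 0.20 for SETD9, 0.19 for YTHDC2, 0.00 for UHRF2, 0.06 for KDM4C and 0.03 for SETBP1, and SETD9 and YTHDC2 were called. These 2 genes were also the ones called without adult female pool 1, 2 or 3 or adult male pool 3. The count over all genes moved as well, from 258 called higher to 165 without adult female pool 1 and 93 without adult male pool 2.

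The next comparison asked whether the sex difference itself was smaller in adults than in younger birds. The log2 M:F ratio in adults less the mean of those at 1, 20 and 65 dph was -0.68 ± 0.11 for SETD9, -0.65 ± 0.09 for YTHDC2, -0.52 ± 0.12 for UHRF2 and -0.75 ± 0.17 for KDM4C (SE). These 4 genes were called (edgeR, Benjamini-Hochberg adjusted p of 0.000454, 0.000247, 0.0235 and 0.0197), where 1.59% of all tested genes were called lower. SETBP1 was not, at -0.30 ± 0.16 (edgeR adjusted p = 0.844, 95% interval -0.63 to 0.04), and its value lay between -0.45 and -0.13 when a pool was left out. Among the other Z genes the median was -0.49, and 213 of 634 (33.6%) were called lower, so that a smaller adult ratio was common on this chromosome. Over all genes 221 were called lower, and 141 without adult male pool 1. The calls of SETD9 and YTHDC2 held when any of the 6 adult pools was left out. Only those 2 genes were called without adult female pool 2, adult male pool 1 or adult male pool 3. UHRF2 then had adjusted p of 0.102, 0.147 and 0.0509 and KDM4C of 0.0729, 0.125 and 0.0788. The call of UHRF2 was also lost without adult female pool 1 (adjusted p = 0.0942) and that of KDM4C without adult female pool 3 (adjusted p = 0.0636).

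**Figure D3:**
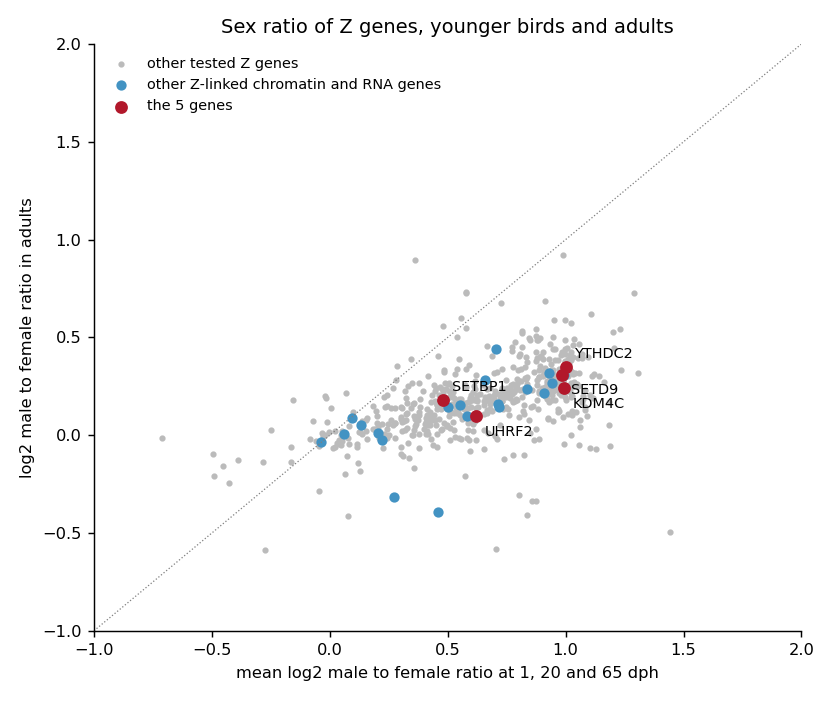
Mean log2 M:F ratio at 1, 20 and 65 dph (x axis) against the log2 M:F ratio in adults (y axis) for the 639 tested Z genes, with the 5 genes in red, the 20 other Z-linked chromatin and RNA genes in blue and the rest in grey. The dotted line marks equal ratios, 4 genes lie outside the axes, and the 5 genes lie below the line.

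Within each sex, the step from 65 dph to adults showed where the levels moved. In females 4 of the 5 genes rose, SETD9 by 0.44 ± 0.09, YTHDC2 by 0.31 ± 0.08, KDM4C by 0.73 ± 0.15 and SETBP1 by 0.65 ± 0.14 on the log2 scale (SE, edgeR Benjamini-Hochberg adjusted p of 0.00418, 0.0158, 0.00414 and 0.00554). In this step 36.3% of the other Z genes and 5.72% of all tested genes were called higher in females. The count over all genes, 795, became 420 and 320 without female pools 2 and 3 at 65 dph and 453 and 508 without adult female pools 1 and 2. UHRF2 changed by 0.30 ± 0.11 and was not called (edgeR adjusted p = 0.066), but was called without female pool 1 at 65 dph, female pool 2 at 1 dph, adult female pool 3 or adult male pool 1 (log2 0.30 to 0.39, adjusted p of 0.0317 to 0.0484). The YTHDC2 call was lost without female pool 3 at 65 dph (adjusted p = 0.0895) or adult female pool 2 (adjusted p = 0.0693), both at a log2 change of 0.28. In males 1 of the 5 genes was called, YTHDC2, which fell by 0.29 on the log2 scale (SE 0.08, edgeR adjusted p = 0.0294), in a contrast that called 4.26% of all genes lower, 592 genes, which became 326 and 360 without male pools 2 and 3 at 65 dph and 352 without adult male pool 3. The log2 change in males was -0.18 for SETD9, -0.29 for UHRF2, -0.11 for KDM4C and 0.15 for SETBP1, none of them called. The male call of YTHDC2 was lost without any of the 3 male pools at 65 dph and without adult male pool 1 or 3 (log2 -0.31 to -0.20, adjusted p of 0.0543 to 0.159). Without adult male pool 2, UHRF2 was called as well (log2 -0.39, adjusted p = 0.0379). Over the other Z genes the median log2 change from 65 dph to adults was 0.32 in females and -0.16 in males, where 16.2% of them were called lower.

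Over the adult male pools the 5 genes shared the order of the Z level, the median of the other Z genes. For 5 of 5 genes the level was highest of the 6 adult pools in male pool 2 and, among the males, lowest in pool 1, which is also the order of the Z level in these pools. In females 2 of 5 genes, SETD9 and YTHDC2, were in the order of the Z level. In male pool 1, UHRF2, KDM4C and SETBP1 lay under the highest female pool. This is a description over 3 pools a sex, which share the libraries that the Z level was taken from. How many of the other Z genes had the same order was not counted, so that it is not shown to be particular to the 5 genes.

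**Figure D4:**
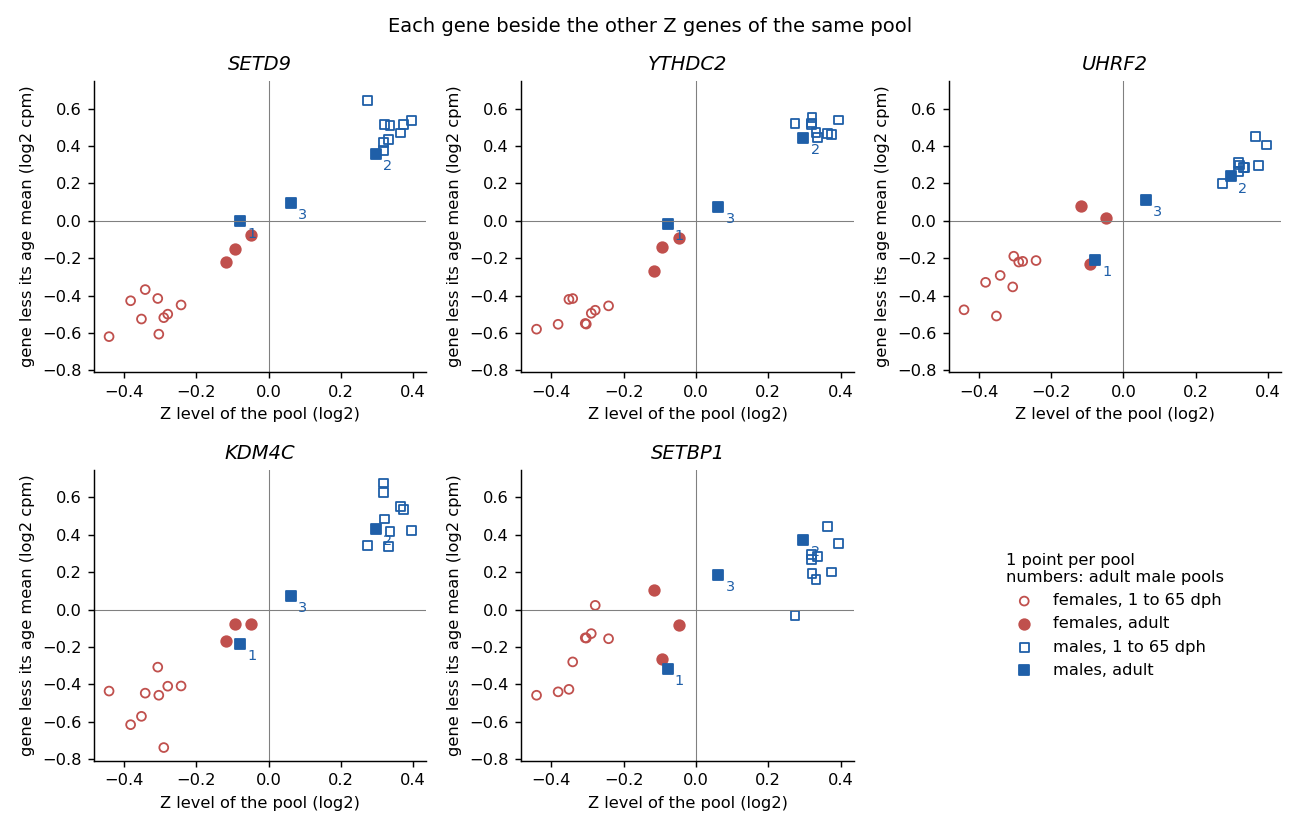
Log2 cpm of each gene less the mean of the 6 pools of its age (y axis) against the Z level of the same pool (x axis, median over the other 634 tested Z genes), with open symbols for pools of 1 to 65 dph and filled ones for adults (circles, females; squares, males; numbers, adult male pools). Both axes are centred on the 6 pools of each age. On the x axis adult male pool 2, at 0.30, has a value in the range of the younger males. Adult male pools 1 and 3, at -0.08 and 0.06, lie between the younger females and males, with pool 1 within the range of the adult females. On the y axis adult male pool 1 lies among the younger female pools for UHRF2 and SETBP1.

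With age the 5 genes did not move one way. Against the 2 groups at 1 dph, the mean of the 6 later groups was lower for SETBP1, by -0.80 ± 0.08 on the log2 scale (SE, edgeR adjusted p = 2.49e-09), for UHRF2 by -0.36 ± 0.06 (edgeR adjusted p = 9.3e-06) and for SETD9 by -0.17 ± 0.05 (edgeR adjusted p = 0.00553). KDM4C was higher by 0.21 ± 0.09 (edgeR adjusted p = 0.0434), and YTHDC2 was not called at 0.08 ± 0.05 (edgeR adjusted p = 0.115). So 3 of the 5 genes were called lower and 1 higher, where 37.2% and 35.1% of all tested genes were. Age calls were thus common over all genes, and a difference of the 5 genes from this background was not tested. The direction of KDM4C and YTHDC2 depended on scaling. Without TMM the median of all genes moved from -0.02 to -0.27, and KDM4C stood at -0.04, not called, and YTHDC2 at -0.17, called lower (edgeR adjusted p = 0.00167). The KDM4C call was also lost with TMM from genes not on Z (adjusted p = 0.0543) and without the filter on low counts (adjusted p = 0.0555). Without the adult pools, an alternative added after the data were seen, YTHDC2 was called higher, at 0.08 (edgeR adjusted p = 0.0268), and KDM4C was not called, at 0.07 (edgeR adjusted p = 0.399). The KDM4C call was lost too in 16 of the 24 fits that left out a single pool, among them 5 of the 6 pools at 1 dph (log2 0.18 to 0.22, adjusted p of 0.051 to 0.137). YTHDC2 was also called without adult male pool 1 (log2 0.09, adjusted p = 0.0401).

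The falls of SETBP1, SETD9 and UHRF2 were called in the step before 20 dph, while KDM4C changed by -0.03, 0.22 and 0.31 on the log2 scale over the 3 steps. From 1 to 20 dph SETBP1 fell by 1.05 on the log2 scale, from a mean of 72.1 ± 14.8 to 34.6 ± 4.63 cpm over both sexes (SD, n = 6). SETD9 fell by 0.29 and UHRF2 by 0.30 (edgeR Benjamini-Hochberg adjusted p of 0.000372 and 0.00071), so that 3 of the 5 genes were called lower, as were 38.5% of all tested genes. YTHDC2, at 0.10 in this step, was called only without adult male pool 2 (adjusted p = 0.0246) among the fits that left out a pool. From 20 to 65 dph 0 of the 5 were called by edgeR, 0 had an unadjusted p under 0.05, and DESeq2 called 0 as well, while 14.6% of all genes were called higher and 15.4% lower. From 65 dph to adults the estimates differed between the sexes. In females SETBP1 changed by 0.65 and KDM4C by 0.73 on the log2 scale, both called. In males they changed by 0.15 and -0.11, neither called. YTHDC2 and UHRF2 changed by 0.31 and 0.30 in females, by -0.29 each in males and by 0.01 each over both sexes. Averaged over both sexes, SETBP1 rose by 0.40 ± 0.10 (SE, edgeR adjusted p = 0.00649) and KDM4C by 0.31 ± 0.11 (edgeR adjusted p = 0.0395), where 10.5% of all genes were called higher. The KDM4C call was lost in 9 of the 24 fits that left out a pool, those without female pool 2 or 3 or male pool 1 or 3 at 65 dph, adult female pool 1, 2 or 3, or adult male pool 2 or 3 (log2 0.22 to 0.33, adjusted p of 0.0514 to 0.137).

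Cell type markers moved over the same ages. The summed level of 4 of 4 progenitor markers (MKI67, TOP2A, CDK1 and SOX2) was 240 to 321 cpm per pool at 1 dph and 62.0 to 66.5 cpm at 20 dph, the step in which SETBP1, SETD9 and UHRF2 fell. The 2 of 4 neuronal markers (SNAP25 and SYT1) stood at 581 to 756 and 3004 to 3271 cpm, and the 2 of 4 endothelial markers (CDH5 and FLT1) at 47.2 to 55.4 and 27.3 to 36.2 cpm. For the red cell marker HBAA, 1 of 5, the range was 36.6 to 112 cpm at 1 dph and 294 to 374 cpm at 20 dph. The astrocyte marker SLC1A3, 1 of 4 and itself a Z-linked gene, stood at 127 to 172 and 326 to 392 cpm. None of these markers was at 0 in any pool, and the part of cell composition in the age changes was not tested.

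The genes whose pattern over the 8 groups was most like that of SETD9, YTHDC2, UHRF2 or KDM4C were mostly Z-linked, and those most like SETBP1 mostly were not. The measure was the root mean square difference of the group means of log2 cpm, each gene centred on its own mean, over the 8 groups of sex and age. Closest to SETD9 were DIMT1 (0.05), APTX (0.06) and CEP120 (0.06), and closest to YTHDC2 were ABHD17B, MTREX and TBCA (0.05 each). UHRF2 was nearest to PTCH1, SMIM15 and LYSMD3 (0.07 to 0.09), and KDM4C to TTC37, PTBP3 and HABP4 (0.06 to 0.09). Of the 50 tested genes nearest to each of these 4 members, with or without a symbol, 48 were on Z. The measure takes in the sex difference for which the members were listed. Genes called higher in males at the younger ages were mostly on Z, so that these shares are not independent of that choice. SETBP1, with its fall after 1 dph, was nearest to CAST (0.14), FOXD2 and CEP78 (0.19 each). Of its 50 nearest genes 16 were on Z, where 639 of all 13891 tested genes were. Symbols were known for only part of the genes, and more often for genes with a sex or age difference. The genes printed here are therefore the nearest among those with a symbol, while the shares on Z are over all tested genes.

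Genes near the members on Z were set beside them. Gene order was taken from the RefSeq annotation of the bTaeGut7.mat assembly, a later build than that of the counts, and the nearest 3 tested genes with a name on each side were taken, 25 genes other than the members. Genes without a name were skipped, and the genes taken lay 1 to 10 coding genes away, where 1 is the adjacent gene. Names were more often known for genes with a sex or age difference. The shares of these neighbours and of all other Z genes are therefore not like for like. Of these 25, 22, 20, 21 and 6 were called higher in males from young to old, against 80.8%, 67.8%, 74.4% and 28.5% of the other Z genes, with median log2 M:F ratios of 0.77, 0.62, 0.70 and 0.21. UHRF2 and KDM4C lie near each other with GLDC, a glycine cleavage enzyme gene, between them. GLDC had log2 ratios of 0.73, 0.63 and 0.43 at 1, 20 and 65 dph, while those of UHRF2 were 0.65, 0.51 and 0.70 and those of KDM4C 0.88, 1.01 and 1.08. MIER3, the gene after SETD9, was not called at any age, with log2 ratios of 0.29, 0.11, 0.18 and 0.03. The ratio thus differed between next neighbours, for SETD9 and MIER3 from 0.99 to 0.29 at 1 dph, although this difference between genes was not tested.

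The partners and relatives of these genes that are not on Z had little sex difference, as had most genes not placed on Z. These lists were chosen with earlier results of these data known. Of the 13252 genes not placed on Z, 0.64%, 0.38%, 0.40% and 0.57% were called higher in males from young to old. Called lower were 1.28%, 0.97%, 1.06% and 0.30%, so that 0 calls in a short list is near the background. Of 20 m6A genes 9 were found and tested, and 0 were called for sex at any age, among them YTHDC1 with log2 M:F ratios between -0.10 and 0.02. With age 3 of the 9 were higher and 6 lower (median -0.52). Of all tested genes 35.1% were higher and 37.2% lower (median -0.02). A listed gene was found only if the study's tables gave its symbol, more often so for genes with a sex or age difference. In this and the next paragraph, age counts and medians therefore describe the genes found and not the families. The m6A eraser ALKBH5 rose by 0.91 and the m6A reader IGF2BP3 fell by 2.63 on the log2 scale, the largest of the list in each direction. Of 18 H3K9 genes 10 were tested, 0 were called for sex, and with age 9 were lower and 1 higher (median -0.58). KDM4A and KDM4B, the paralogs of KDM4C, were at -0.19 and -0.57 with age, both called lower, while the demethylase KDM7A rose by 1.04 and the heterochromatin protein gene CBX1 fell by 1.36.

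In the DNA methylation list, 12 identifiers of 11 of 15 genes were tested, 0 were called for sex, and with age 9 were lower and 2 higher (median -0.74). UHRF1, the paralog of UHRF2, fell by 4.60 on the log2 scale with age against 0.36 for UHRF2, and TET1, which oxidizes methylated cytosine, rose by 0.94. Of 17 SET domain genes 8 were tested, and with age 6 were lower and 2 higher (median -0.30). The chromosome 1 gene SETD4 was lower in males in adults (log2 -0.71, edgeR adjusted p = 0.00893) and SETD6 at 65 dph (log2 -0.23, edgeR adjusted p = 0.0461). The H3K4 methyltransferase SETD1B fell by 1.02 with age, and SETD3, a histidine methyltransferase of actin, rose by 0.77. Only 3 of 15 SETBP1 partners and targets were found and 2 tested. SET itself fell by 0.45 with age, and MYB, a transcription factor of progenitor cells, by 3.00, with a log2 M:F ratio of -0.57 at 20 dph (edgeR adjusted p = 0.029).

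Among 20 other Z-linked chromatin and RNA genes, all tested, 13 were called higher in males at each of the 3 younger ages and 5 in adults, and 0 were lower. Of the other Z genes as a whole, 80.8%, 67.8%, 74.4% and 28.5% were called higher from young to old. The median log2 M:F ratio of the list was 0.61, 0.42, 0.67 and 0.14 from young to old, beside 0.75, 0.63, 0.71 and 0.19 for the other Z genes as a whole. MTREX, an RNA helicase of the nuclear exosome, was near the 2-fold ratio of its copies (log2 1.03, 0.93 and 1.02), as was SMC5, a subunit of the SMC5/6 complex (0.96, 0.80 and 1.03). NIPBL, the cohesin loader, had log2 ratios of 0.01, -0.04 and -0.09 and ZFR, a zinc finger RNA-binding protein gene, of 0.04, -0.02 and 0.15, none called. With age 12 of the 20 were lower and 5 higher, where 40.1% and 37.9% of the other Z genes were. The largest fall was that of the condensin subunit SMC2, by 4.83 on the log2 scale, and the largest rise that of SMARCA2, a chromatin remodelling ATPase, by 0.83. In adults against younger birds 8 of the 20 were called for a smaller sex difference (median -0.44), as were 4 of the 5 members. Of the other Z genes 33.6% were called (median -0.49), so that this was not particular to the list.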

How the data were processed

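The authors made the deposited raw counts of reads per Ensembl gene (taeGut3.2.4, release 87) with STAR 2.5.2b and htseq-count 0.6.0, after stranded mRNA library preparation and single-end sequencing. The strand setting of the counting is not given in the sources used here. Symbols and chromosomes were taken from the study's supplementary tables (3504 and 3907 of 18618 identifiers, names only), and a gene that these tables do not place on Z was counted as not on Z. The 13891 genes that reached 1 cpm in 3 pools or more were tested (4727 were left out) with edgeR 4.0.16 in R 4.3.3, with TMM, a quasi-likelihood fit of 8 group means over the 24 pools and the staged test described above; contrasts outside the stages used the Benjamini-Hochberg method over all tested genes. Tables and figures were made with Python 3.11.15, pandas 2.3.3 and matplotlib 3.10.9. The fit was tested on simulated data, where changes of the sex difference were recovered less often than changes with sex or age and, in the seeded run, more of their calls were false than the threshold aims at. The share that had to be recovered was lowered after the first run. Pools are numbered in accession order and are not paired. Named genes were the 5 genes, the 3 genes with the most similar pattern, the nearest 3 tested genes with a name on each side and 6 lists, of which the largest rise and fall are named. YTHDC1, KDM4A, KDM4B, SETD4, SETD6, SET, GLDC, MIER3, MTREX, SMC5, NIPBL and ZFR were picked from these after their values were seen. Members and lists were chosen with earlier results of these data known. No markers of microglia, choroid plexus or hindbrain were found among the symbols, and they were not used here. A further marker list is not reported here. The alternatives were DESeq2 1.42.0 and its size factors, no TMM, TMM from genes not on Z, no filter, another adjustment, pools of the age only and each pool left out.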

Additional observations from a re-analysis of the deposited data

Results flagged for a closer look

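The change of the sex difference in adults against younger birds passed the edgeR test of that difference itself (Benjamini-Hochberg over all genes) for 4 of the 5 genes, where 1.59% of all tested genes and 33.6% of the other Z genes were called lower. On the log2 scale it was -0.68 for SETD9, -0.65 for YTHDC2, -0.52 for UHRF2 and -0.75 for KDM4C. The ratio was lower in adults than at each of the 3 younger ages for all 4 genes. They were listed for a sex difference in these same pools, so that this change is not independent of their choice. UHRF2 and KDM4C were not called without adult female pool 2, adult male pool 1 or adult male pool 3, nor UHRF2 without adult female pool 1 and KDM4C without adult female pool 3. The Z level of adult male pool 1 was -0.08, within the -0.12 to -0.05 of the adult female pools. The part of the Z level of the adult pools in these values was not tested.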

How the results depend on the processing

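The number of the 5 genes called for sex was 4 or 5 at 1 and 20 dph and 5 at 65 dph whichever pool was left out, and moved in adults from 2 to 0 with the Benjamini-Hochberg method per contrast, to 0 with the pools of the age only, and between 2 and 5 when a pool was left out. For the smaller adult difference the 4 calls ranged from 2 to 4 with a pool left out. From 1 to 20 dph the 3 calls became 5 without TMM, and from 65 dph to adults the 2 calls became 1 without the filter and ranged from 1 to 2 with a pool left out. In males from 65 dph to adults the 1 call became 0 without TMM and 2 with the DESeq2 Wald test, and ranged from 0 to 2 with a pool left out. The following log2 changes turned their sign. Without TMM, KDM4C with age went to -0.0355, YTHDC2 with age to -0.17 and YTHDC2 from 1 to 20 dph to -0.14. From 65 dph to adults over both sexes, UHRF2 (0.01) went to -0.0038 with DESeq2's size factors, -0.0011 without the filter and -0.0039 with the DESeq2 Wald test. With a pool left out, UHRF2 ranged from -0.043 to 0.0651 and YTHDC2 from -0.0641 to 0.0562 in that step, KDM4C from -0.289 to 0.0259 and SETBP1 from -0.0012 to 0.32 from 65 dph to adults in males, and KDM4C from -0.087 to 0.0207 from 1 to 20 dph. The cause was not tested. With 3 pools a group, the 95% intervals of the sex differences of KDM4C, the gene with the fewest reads, spanned about 0.6 on the log2 scale. Those of SETBP1, which had more reads, were nearly as wide (SE 0.14, against 0.15 for KDM4C). No paired analysis was possible because the samples carry no shared replicate numbers.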
